A study of Mus musculus with 12 samples.

Results

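A set of 10 genes that mark astrocytes and Bergmann glia, or that carry the uptake of glutamate in them, was followed through the cortex and cerebellum of SCA1 KI mice. They were taken by symbol from the table of normalized counts as Slc1a2, Slc1a3, Glul, Kcnj10, Aqp4, Gja1, Gfap, S100b, Aldh1l1 and Sox9, which are 10 of its 15759 entries. All 10 averaged at least 10 normalized counts over the libraries and were among the 15369 genes tested. Spinocerebellar ataxia type 1 (SCA1) follows from a lengthened CAG repeat in Atxn1, the gene of ataxin-1. The Atxn1 alleles of SCA1 KI mice encode 154 and 2 glutamines (Atxn1 154Q/2Q), under the gene's own promoter, and WT littermates served as controls, both on a C57BL/6J background at 12 weeks of age. Poly-adenylated RNA of macro-dissected whole cortex and whole cerebellum was sequenced in 12 libraries, 3 for every combination of region and genotype. According to the labels the mice were male, while the paper describes both sexes combined, and nothing states whether a library came from 1 animal. The cerebellar libraries belong to a dataset published earlier and analysed again, so that region and sequencing occasion cannot be told apart in any comparison between cortex and cerebellum.

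Astrocytes clear the glutamate that neurons release, through transporters of the Slc1 family, and turn it into glutamine with glutamine synthetase. They also carry away extracellular potassium, pass water at their endfeet and are joined to each other by gap junctions. Bergmann glia are the astrocytes whose fibres ensheath Purkinje cell dendrites in the cerebellum, and they are known for a high content of the transporter that Slc1a3 encodes, whereas forebrain astrocytes rely mainly on the one that Slc1a2 encodes. In RNA of whole tissue, fewer cells of a type and less RNA per cell cannot be told apart, which applies to each difference below.

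Promoter sequence is shown for 4 of the genes, namely both transporters, which were ranked differently in the 2 regions, and Aldh1l1 and Kcnj10. The libraries of Aldh1l1 and Kcnj10 did not overlap between genotypes in either region, which also held for Slc1a2, Glul, Aqp4 and Gja1. All SCA1 KI libraries were below all WT libraries in 18.0% of tested genes in the cortex and 17.5% in the cerebellum. RefSeq held a promoter for 8 of the 10 genes (all but Aqp4 and Sox9), and each window is the 250 bases before the RefSeq start of transcription on GRCm38.p6. The window of Slc1a2 is chr2:102706188-102706437 (plus strand), that of Slc1a3 chr15:8710808-8711057 (minus strand), that of Aldh1l1 chr6:90550543-90550792 (plus strand) and that of Kcnj10 chr1:172340960-172341209 (plus strand). Those of Slc1a2, Aldh1l1 and Gfap lie inside the gene as GENCODE draws it, downstream of its first annotated base. Capitals mark the motif matches found.
Slc1a2: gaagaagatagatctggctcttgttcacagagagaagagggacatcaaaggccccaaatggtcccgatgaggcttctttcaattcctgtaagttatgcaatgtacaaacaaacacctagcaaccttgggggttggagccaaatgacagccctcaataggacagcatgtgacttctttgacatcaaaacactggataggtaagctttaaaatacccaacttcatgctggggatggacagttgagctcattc
Slc1a3: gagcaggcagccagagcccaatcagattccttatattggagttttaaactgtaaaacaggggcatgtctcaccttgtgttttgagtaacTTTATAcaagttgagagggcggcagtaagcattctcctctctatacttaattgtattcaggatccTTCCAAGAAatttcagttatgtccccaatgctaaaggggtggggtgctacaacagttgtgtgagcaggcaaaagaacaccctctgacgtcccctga
Aldh1l1: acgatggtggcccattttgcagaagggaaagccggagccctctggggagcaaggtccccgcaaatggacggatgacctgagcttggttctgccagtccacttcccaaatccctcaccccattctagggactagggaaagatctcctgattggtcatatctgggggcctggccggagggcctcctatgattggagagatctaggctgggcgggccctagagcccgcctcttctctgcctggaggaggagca
Kcnj10: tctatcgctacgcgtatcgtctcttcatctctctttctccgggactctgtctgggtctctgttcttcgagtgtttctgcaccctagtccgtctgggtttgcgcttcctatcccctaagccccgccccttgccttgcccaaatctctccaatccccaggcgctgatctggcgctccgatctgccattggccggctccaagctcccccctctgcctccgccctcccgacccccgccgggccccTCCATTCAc

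A set of 4 motifs was searched on both strands in the 8 windows. The octamer of capicua, a repressor that binds ataxin-1, was spelled TGAATGAA, TGAATGGA, TCAATGAA or TCAATGGA, and it stood once in the Kcnj10 window (TCCATTCA, the reverse complement of one of these words, 9 bases before the start). It is held by 3.19% of all 32851 promoter windows of this length. The STAT motif TTCNNNGAA (7.02% of windows) and the TATA box TATAAA (12.4%) each stood once in the Slc1a3 window, 96 and 161 bases before the start, the latter on the opposite strand as TTTATA. The short motif of nuclear factor I, TTGGCA (12.3%), stood once before S100b, 19 bases from the start. No 2 of these matches overlapped, and the windows of Slc1a2, Aldh1l1, Glul, Gja1 and Gfap held none of the 4 motifs. These are matches of letters and not measured binding sites.

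The values used are DESeq2-normalized counts, in which the reads on each gene are divided by 1 size factor per library. The libraries held 29520855 to 51311309 reads on genes. Every library is named by the letter or number of its own column, B, C and D for WT cortex, A, E and F for SCA1 KI cortex, 2, 4 and 6 for WT cerebellum and 1, 3 and 5 for SCA1 KI cerebellum, and values are given in that order. Cortical counts of Atxn1 itself were 8147, 7443 and 6521 (WT) and 4604, 7249 and 6267 (SCA1 KI), and cerebellar counts 3737, 3628 and 3671 (WT) and 3812, 3717 and 4138 (SCA1 KI), so that the genotypes overlapped in both regions. Counts per gene do not show the length of the repeat, so that this does not check the labels. The tissue labels matched their markers in that all 8 marker genes of cortical excitatory neurons were DEGs higher in WT cortex than in WT cerebellum, and all 8 of granule cells and all 8 of Purkinje cells were lower. Some libraries stood apart. SCA1 KI cortex library A was the lowest of its group in 9 of the 10 genes (all but S100b), and WT cerebellum library 2 was the highest of its group in 7 and the lowest in the other 3.

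In the cortex, 7 of the 10 genes fell in SCA1 KI mice and none rose. Slc1a2, Slc1a3, Glul, Kcnj10, Aldh1l1, Aqp4 and S100b were DEGs, with an FDR-adjusted p under 0.05 in limma and an absolute log2 fold change (LFC) over 0.25. Of all tested genes, 10.8% were lower and 4.82% higher by the same rule (15.6% in all). No gene of the 10 was higher in the cortex at an unadjusted p under 0.05 or with edgeR or DESeq2 either (0 in each case). The LFC was below 0 for all 10, as for 50.5% of tested genes, and its median was −0.48 against −0.0028 over all tested genes. In 9 of them the highest SCA1 KI library stayed under the lowest WT library, which held for 18.0% of tested genes. The count was 5 without WT library C or D and with the cortical libraries fitted on their own, Aqp4 and S100b being lost in each of these fits, and 6 without SCA1 KI library A, where Aqp4 was lost.

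In the cerebellum, 1 of the 10 genes fell and none rose. Aldh1l1 was the DEG, where 4.44% of tested genes were lower and 0.917% higher (5.36% in all). At an unadjusted p under 0.05 in limma 6 genes were lower and 0 higher, and edgeR called 1 and DESeq2 3 lower and neither called any higher. All 10 had an LFC below 0 (51.3% of tested genes), with a median of −0.28 against −0.0049 over all tested genes. In 7 every SCA1 KI library was below every WT library, which held for 17.5% of tested genes. The cerebellar count depended on single libraries and ranged from 0 (without WT library 6 or any 1 of the 3 SCA1 KI libraries) to 3 (without SCA1 KI cortex library A, which enters the shared estimate of spread), and was 2 without WT cerebellum library 4 or SCA1 KI cortex library F.

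**Figure D1:**
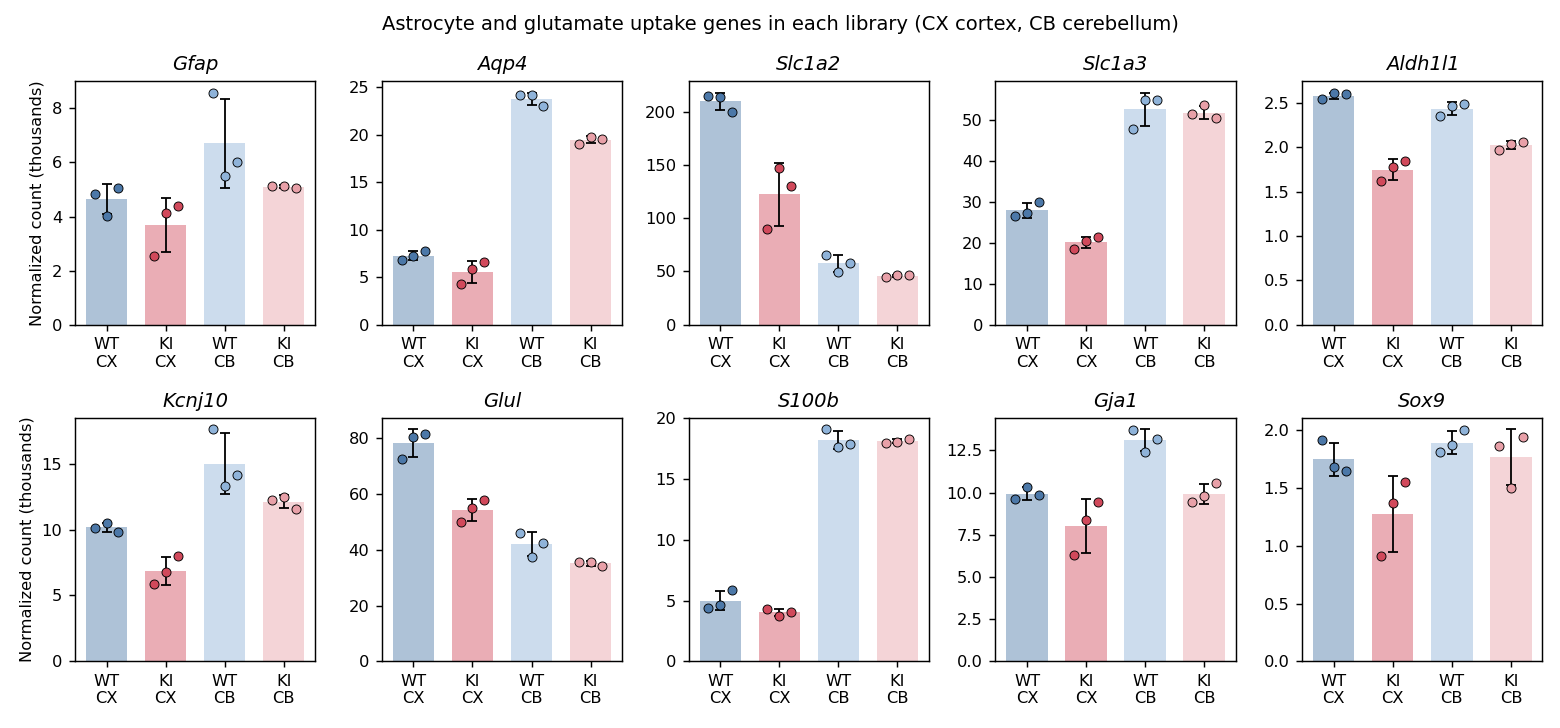
Normalized counts (vertical axes in units of 1000, starting at 0 and scaled for each gene) of the 10 genes by group of genotype and region. Points are the 12 libraries, bars the means and whiskers the SD of 3 libraries. In the cortex every SCA1 KI library lies below every WT library in all genes but Gfap, and in the cerebellum in 7 genes, with Slc1a3, S100b and Sox9 overlapping.

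Slc1a2 encodes GLT-1 (EAAT2), the main glutamate transporter of forebrain astrocytes, and its gene lies at chr2:102658659-102790784 (GRCm38, plus strand). WT cortex held 214850.0, 213583 and 199946 normalized counts and SCA1 KI cortex 89746, 147178 and 129954. Each SCA1 KI library was thus far below the lowest WT library, and library A was lower than its 2 companions by more than these were from each other. The mean was 209460 ± 8263 (SD, n = 3) in WT and 122293 ± 29473 (SD, n = 3) in SCA1 KI cortex, an LFC of −0.81 (standard error 0.15, 95% confidence interval −1.12 to −0.49, adjusted p = 0.00236 in limma) or 42.8% lower once the LFC is turned back from the log scale. Among the 10 genes its cortical LFC was the furthest from 0, and leaving out library A moved it to −0.60, still a DEG. In the cerebellum the counts were 65098, 49731 and 57632 in WT and 44371, 46393 and 46647 in SCA1 KI mice, which did not overlap. The cerebellar LFC of −0.32 (standard error 0.15, interval −0.64 to −0.00086, adjusted p = 0.287 in limma) did not pass. The cortical LFC was 0.49 below the cerebellar one, a difference between regions that did not pass either (standard error 0.21, adjusted p = 0.194 in limma).

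Slc1a3 encodes GLAST (EAAT1), the transporter prominent in Bergmann glia, at chr15:8634124-8710764 (minus strand). Its normalized counts were 26492, 27276 and 30061 in WT cortex and 18579.7, 20394 and 21297 in SCA1 KI cortex. All SCA1 KI libraries were lower, and the LFC was −0.48 (standard error 0.075, adjusted p = 0.00092 in limma). In the cerebellum, WT libraries held 47862, 54970.0 and 54910.1 and SCA1 KI libraries 51341, 53545 and 50553. Here the SCA1 KI libraries lay within the range of the WT libraries. The cerebellar LFC was −0.02 (standard error 0.075, adjusted p = 0.943 in limma), with a 95% confidence interval of −0.18 to 0.14 that does not reach the LFC of the cortex. The genotype difference itself differed between the regions, by −0.46 (standard error 0.11, adjusted p = 0.0189 in limma), a change called in 8.15% of all tested genes. Without SCA1 KI cerebellum library 3 this difference had an adjusted p of 0.0572, and it passed with any other library left out.

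Glul encodes glutamine synthetase, the enzyme that makes glutamine from the glutamate taken up (chr1:153899944-153909723, plus strand). Cortical counts were 72448, 80538 and 81519 in WT and 50088, 55063 and 57916 in SCA1 KI mice. The groups were well apart, with an LFC of −0.52 (standard error 0.082, adjusted p = 0.00087 in limma), which is 30.5% lower. In the cerebellum they were 46029.9, 37565 and 42532 in WT and 35627, 35527 and 34099 in SCA1 KI mice. The SCA1 KI libraries again lay below all WT libraries, though WT library 4 came close to them. The cerebellar LFC of −0.26 (standard error 0.082, adjusted p = 0.103 in limma) did not pass, nor did the difference between regions (−0.27, adjusted p = 0.202). Without WT cerebellum library 4 the cerebellar LFC was −0.34 and passed (adjusted p = 0.0314).

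The ratio of both transporters separated the regions and not the genotypes. Its size depends on the exon lengths used, whereas the comparison between groups does not. Per kilobase of exon, Slc1a2 stood at 4.32 to 5.27 times the level of Slc1a3 in the WT cortex libraries and at 3.14 to 4.69 times in the SCA1 KI cortex libraries, ranges that overlapped. In the cerebellum the ratio was 0.588 to 0.884 in WT and 0.562 to 0.600 in SCA1 KI libraries, and these overlapped as well. That of Glul to Slc1a3 was 6.97 to 7.59 in WT and 6.93 to 6.99 in SCA1 KI cortex libraries and thus overlapped too, although both genes fell there.

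Kcnj10 encodes Kir4.1, the inward rectifier through which glia take up potassium (chr1:172341210-172374085, plus strand). Its cortical counts were 10146, 10514 and 9839 in WT and 5849.9, 6767 and 7990.2 in SCA1 KI mice. Every SCA1 KI library was below the WT range, and the LFC was −0.58 (standard error 0.11, adjusted p = 0.00345 in limma). Cerebellar counts were 17600.5, 13276 and 14146 in WT and 12244, 12505 and 11571 in SCA1 KI mice. WT library 2 stood above its companions, and the groups did not overlap. The LFC there was −0.30 (standard error 0.11, adjusted p = 0.167 in limma), and it was −0.18 without WT library 2.

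Aqp4 encodes the water channel of astrocyte endfeet (chr18:15389496-15410982, minus strand). It measured 6778, 7277 and 7744 in WT and 4337, 5831 and 6597 in SCA1 KI cortex. Each SCA1 KI library was under the lowest WT library, F by little. The LFC was −0.40 (standard error 0.11, adjusted p = 0.0308 in limma), and without SCA1 KI library A it was −0.23, short of the limit of 0.25. The cortical call was also lost without WT library C or D and with the cortical libraries fitted on their own. In the cerebellum, where its level was about 3.27-fold that of the cortex in WT mice, it measured 24160.3, 24146 and 23001 in WT and 19043, 19769.5 and 19571 in SCA1 KI mice. Both groups were tight and apart, at a mean of 23769 ± 665 and 19461 ± 375 (SD, n = 3 each), yet the LFC of −0.29 did not pass (adjusted p = 0.201 in limma), with a standard error of 0.11 that is estimated over all 4 groups. With the 6 cerebellar libraries fitted on their own, and also without SCA1 KI cortex library A, Aqp4 was a DEG in the cerebellum.

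Gja1 encodes connexin 43, which forms the gap junctions between astrocytes (chr10:56377330-56402513, plus strand). In the cortex it measured 9621, 10356 and 9869.8 in WT and 6310.2, 8368 and 9451 in SCA1 KI mice. The groups did not overlap, but library F lay just under the lowest WT library, and the LFC of −0.33 did not pass (standard error 0.11, adjusted p = 0.066 in limma). Without library A it was −0.16, and without library F it passed. In the cerebellum it measured 13715, 12428 and 13174 in WT and 9429, 9789.7 and 10559 in SCA1 KI mice, further apart than in the cortex. Its cerebellar LFC of −0.40 (standard error 0.11, adjusted p = 0.0606 in limma) was the furthest from 0 of the 10 genes in that region and did not pass. It was a DEG there with DESeq2, with the cerebellar libraries on their own, and without SCA1 KI cortex library A or F. Gja1 was also the 1 gene of the 10 whose LFC was further from 0 in the cerebellum than in the cortex, a difference of 0.08 between regions that was smaller than its standard error (0.16).

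Aldh1l1 encodes a folate enzyme of the cytosol that is widely used as a pan-astrocyte marker (chr6:90486427-90600203, plus strand). It was the only one of the 10 that was a DEG in both regions. Cortical counts were 2543, 2605 and 2594 in WT and 1616, 1773 and 1846 in SCA1 KI mice. With little spread among the WT libraries, the LFC was −0.57 (standard error 0.059, adjusted p = 4.88e-05 in limma), the smallest adjusted p of the 10. The cerebellum held 2351, 2462 and 2487 in WT and 1971, 2034 and 2055 in SCA1 KI mice, again without overlap. There the LFC was −0.27 (standard error 0.059, adjusted p = 0.0182 in limma), close to the limit of 0.25, and the call was lost when WT library 6 or any 1 of the SCA1 KI cerebellum libraries was left out (LFC −0.29 to −0.25 over all fits without 1 library, adjusted p up to 0.0955). The cortical LFC was 0.30 below the cerebellar one (standard error 0.083, adjusted p = 0.0452 in limma), a call that was lost in 11 of the 12 fits without 1 library (all but that without SCA1 KI cortex library F) and with edgeR.

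Gfap encodes the intermediate filament of astrocytes, known to rise in astrogliosis (chr11:102887336-102900912, minus strand). It measured 4828, 4026 and 5066 in WT and 2539.6, 4125 and 4392 in SCA1 KI cortex. The groups overlapped, library A alone lying well below, and the LFC of −0.37 (standard error 0.19, 95% confidence interval −0.78 to 0.05, adjusted p = 0.222 in limma) did not pass. Without library A it was −0.12. In the cerebellum it measured 8581, 5511 and 6023 in WT and 5138, 5146 and 5041 in SCA1 KI mice. The SCA1 KI libraries lay close together and below each WT library, of which library 2 was far the highest. The cerebellar LFC was also −0.37 (standard error 0.19, interval −0.78 to 0.05, adjusted p = 0.366 in limma) and was −0.17 without WT library 2.

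S100b encodes a calcium-binding protein of astrocytes that is especially abundant in Bergmann glia (chr10:76253853-76261159, plus strand). It measured 4396, 4667 and 5875 in WT and 4323, 3757 and 4091 in SCA1 KI cortex. The groups did not overlap, but the highest SCA1 KI library, A, came close to the lowest WT library, B. The LFC was −0.29 (standard error 0.092, adjusted p = 0.0486 in limma), a call at the edge of the threshold that was lost in 12 of the 21 other fits, with an LFC of −0.16 without WT library D. The cerebellum held 19070.4, 17642 and 17878 in WT and 17966, 18067 and 18257 in SCA1 KI mice, which overlapped. Its LFC there was −0.01 (standard error 0.092, interval −0.21 to 0.19, adjusted p = 0.985 in limma).

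Sox9 encodes a transcription factor that astrocytes keep throughout life (chr11:112782224-112787760, plus strand). It measured 1911, 1683 and 1645 in WT and 907, 1369 and 1547 in SCA1 KI cortex. All SCA1 KI libraries were lower, but they differed by up to 1.71-fold among themselves, and the LFC of −0.49 did not pass (standard error 0.16, adjusted p = 0.055 in limma). DESeq2 called it a DEG, as did the fit without SCA1 KI library F, and without library A the LFC was −0.26. Cerebellar counts were 1807, 1869 and 1995 in WT and 1861, 1494 and 1942 in SCA1 KI mice, with an LFC of −0.11 (standard error 0.16, adjusted p = 0.82 in limma) and overlapping groups.

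**Figure D2:**
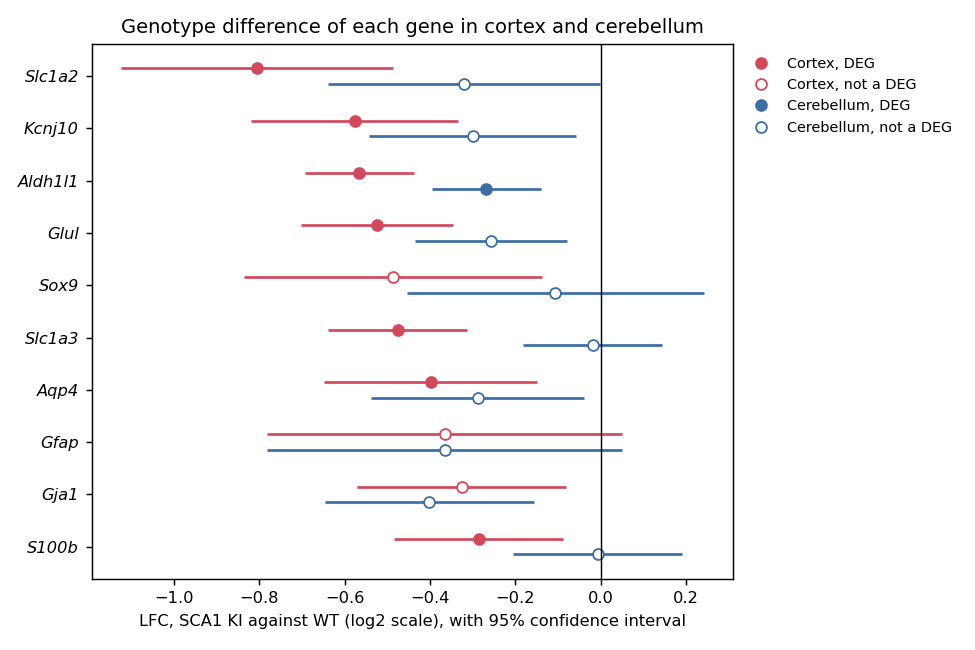
LFC of SCA1 KI against WT for each of the 10 genes (horizontal axis, log2 scale) in cortex (red) and cerebellum (blue), with 95% confidence intervals as lines, filled points for DEGs and open points for other genes. All 20 points lie below 0, and 7 cortical points and 1 cerebellar point are filled. The cortical and cerebellar intervals are apart for Slc1a3 and for Aldh1l1.

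The question whether genotype acted alike on these genes in both regions was tested gene by gene as the difference of both LFCs. Slc1a3 and Aldh1l1 passed, both with the lower LFC in the cortex, where 4.89% of tested genes passed in that direction and 3.26% in the other. All differences but that of Gja1 were below 0, 9 of 10 against 48.7% of tested genes. No gene passed in the other direction, also at an unadjusted p under 0.05, in edgeR or in DESeq2 (0 in each case), and edgeR called Slc1a3 alone. For the 8 genes that missed the threshold, the intervals were wide and do not show alike responses, as for Slc1a2 (−0.94 to −0.04) and Gfap (−0.59 to 0.59).

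In WT mice, 2 of the 10 genes were higher in the cortex than in the cerebellum and 6 lower, in a comparison where 61.7% of tested genes were DEGs (31.0% higher and 30.7% lower). Slc1a2 was 3.66-fold higher in the cortex (LFC 1.87, standard error 0.15) and Glul 1.86-fold higher (LFC 0.90, standard error 0.082). S100b was 3.68-fold lower (LFC −1.88, standard error 0.092), Aqp4 3.27-fold lower (LFC −1.71, standard error 0.11) and Slc1a3 1.88-fold lower (LFC −0.91, standard error 0.075). These 5 genes had adjusted p between 1.56e-09 and 6.45e-07 in limma. Kcnj10, Gfap and Gja1 were lower in the cortex by an LFC of −0.55, −0.51 and −0.40 (adjusted p = 0.00073, 0.0314 and 0.0073 in limma), and the call of Gfap was lost without WT cortex library B or C or WT cerebellum library 2. Aldh1l1 (LFC 0.09, adjusted p = 0.219) and Sox9 (LFC −0.12, adjusted p = 0.542) did not pass, with intervals of −0.04 to 0.21 and −0.46 to 0.23. All 11 listed genes of Bergmann glia and non-telencephalic astrocytes were lower in the WT cortex, with a median LFC of −2.07.

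To compare levels between the genes, counts were divided by the length of all annotated exons of each gene. The order of the genes and their overlaps rest on this choice of length. For Slc1a3 and Gja1 it was 8537 and 10257 bases, against 4435 and 3889 in the longest transcript. For S100b and Kcnj10 both lengths were the same (1484 and 5407 bases). Levels by the longest transcript were not computed. In the WT cortex Glul was first, at 23523 ± 1498 normalized counts per kb (SD, n = 3), followed by Slc1a2 at 15949 ± 629. S100b at 3355 ± 531 and Slc1a3 at 3273 ± 220 overlapped, and Kcnj10 came next at 1880.2 ± 62.5. Aqp4, Gfap and Gja1 (1166, 1100.1 and 969.9 per kb) each overlapped their neighbour, above Aldh1l1 at 571 and Sox9 at 422. The WT cerebellum had another order, in which Glul at 12652 ± 1280 and S100b at 12262 ± 516 per kb overlapped at the top, ahead of Slc1a3 at 6159 ± 479. Slc1a2 at 4377 ± 585 and Aqp4 at 3813 ± 107 overlapped there, and Kcnj10 (2776), Gfap (1589.7), Gja1 (1278), Aldh1l1 (539) and Sox9 (457) followed, of which Gfap and Gja1 overlapped. In the SCA1 KI cerebellum S100b, at 12194.5 per kb, was above Glul at 10558 without overlap. In the SCA1 KI cortex the order by mean was that of the WT cortex. Summed over the 10 genes, the level per kb was 50299 to 53434 in WT cortex, 30569 to 37857 in SCA1 KI cortex, 43263 to 48726 in WT cerebellum and 40467 to 41141 in SCA1 KI cerebellum libraries.

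**Figure D3:**
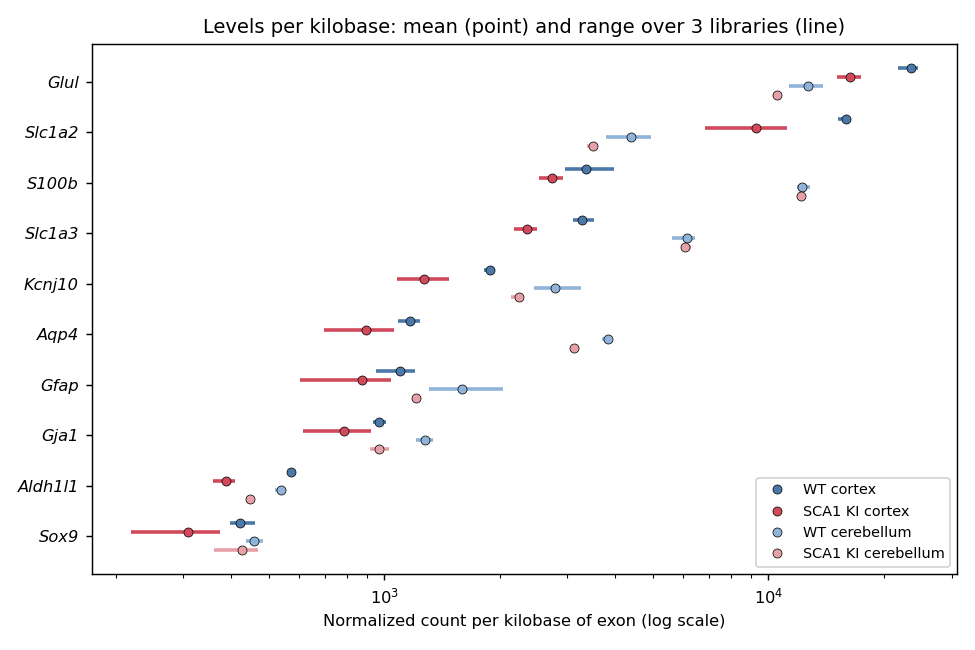
Level of each gene in normalized counts per kilobase of exon (log axis) in the 4 groups, points being means and lines the range over 3 libraries. Glul and Slc1a2 lead in the cortex and Glul and S100b in the cerebellum, and the widest distance between SCA1 KI and WT is that of Slc1a2 in the cortex.

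The genes whose pattern was most like each of the 10 were sought by Pearson correlation over the 12 libraries, after the mean of each region was subtracted, among 12663 genes averaging at least 100 normalized counts. These values are descriptions, since only the mean of the region was subtracted, so that a genotype difference that genes have in common enters each r. Depth also differed between the libraries. Slc1a2 was most like Ntrk2, the receptor of BDNF (r = 0.985), and then Lrp4 and Fat3 (both r = 0.972). Slc1a3 was most like Sec14l1 (r = 0.977), then Gria4, an AMPA receptor subunit (r = 0.966), and Cdk16 (r = 0.964). For Aldh1l1 these were Plk5 (r = 0.987), Nell1 (r = 0.985) and Sfxn5 (r = 0.982), and for Kcnj10 they were Iqsec3 (r = 0.988), Qk (r = 0.970) and Bmper (r = 0.969). Bmper also led for Glul (r = 0.977), before Atxn7l3 and Dpy19l1 (r = 0.977 and 0.976). Aqp4 was most like Tmem47 (r = 0.959), and Gja1, another of the 10, came second (r = 0.943), ahead of Abtb2 (r = 0.942). Gja1 itself was most like Gdf11 (r = 0.970) and then the desaturases Scd1 (r = 0.955) and Scd2 (r = 0.952). The leading gene was Pdgfra for Gfap (r = 0.951), Prdx6 for S100b (r = 0.945) and Ypel2 for Sox9 (r = 0.972). Among the 45 pairs of the 10 genes r ran from 0.252 (S100b and Sox9) to 0.956 (Kcnj10 and Glul), with a median of 0.792.

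Of 20 further genes of glutamate and glutamine handling, 4 fell and 1 rose in the cortex, with a median LFC of −0.14. This and the counts of the lists that follow stand against 10.8% lower and 4.82% higher of all tested genes in the cortex, and 4.44% lower and 0.917% higher in the cerebellum. Atp1b2, the glial beta subunit of the sodium pump that keeps up the gradient used for uptake, fell (LFC −0.33, adjusted p = 0.00421). Slc1a6, the EAAT4 transporter known from Purkinje cells, rose from 321 ± 37 to 430.0 ± 14.8 normalized counts (SD, n = 3, LFC 0.43, adjusted p = 0.00555), all adjusted p being from limma. In the cerebellum 0 of the 20 passed in limma, with a median LFC of −0.08, whereas 4 were lower and 0 higher at an unadjusted p under 0.05, DESeq2 called 1 lower and edgeR 0.

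Among 15 partners of the glial water and potassium channels and junctions, 4 fell in the cortex and none rose, with a median LFC of −0.18. Slc4a4, a sodium bicarbonate cotransporter, fell furthest of these 4 (LFC −0.53, adjusted p = 0.00795), and Hepacam, a partner of Mlc1 and of the chloride channel Clcn2 in astrocyte junctions, fell together with Clcn2 (LFC −0.36 and −0.31, adjusted p = 0.007 and 0.00814), as did Kcnk1 (LFC −0.35, adjusted p = 0.0158). In the cerebellum 1 fell, Kcnj16, which encodes the Kir5.1 subunit that pairs with Kir4.1 (LFC −0.34, adjusted p = 0.0222 in limma), with a median LFC of −0.10. That call was lost without WT library 2 or any 1 of the SCA1 KI cerebellum libraries.

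Of 29 other astrocyte markers tested, 11 fell in the cortex and none rose, and 11 fell and 1 rose in the cerebellum (median LFC −0.23 and −0.17). The cortical DEGs with the smallest p were Ttyh1 (LFC −0.31, adjusted p = 0.00159), the phagocytic receptor Mertk (LFC −0.65, adjusted p = 0.00246), the growth factor receptor Fgfr3 (LFC −0.50, adjusted p = 0.00262) and Acsl6 (LFC −0.30, adjusted p = 0.00271). In the cerebellum they were the ectonucleotidase Entpd2 (LFC −0.97, adjusted p = 0.000149), the glycolytic enzyme Aldoc (LFC −0.64, adjusted p = 0.000323), the Notch target Hes5 (LFC −1.08, adjusted p = 0.00276) and the glypican Gpc5 (LFC −0.91, adjusted p = 0.00743), all from limma. Aldoc is also a marker of a set of Purkinje cells. Another 2 were chosen after their values were seen. Nfib, a transcription factor of glial development, was the gene that rose in the cerebellum (LFC 0.38) and it fell in the cortex (LFC −0.41), a difference between regions that passed (−0.79, adjusted p = 0.00504). The GABA transporter Slc6a11 had the cerebellar LFC furthest from 0 (−1.48, adjusted p = 0.00801), with WT libraries as far apart as 8003 ± 3721 against 2674 ± 156 normalized counts (SD, n = 3). The cerebellar count of 11 was 5 to 7 without WT library 2 or 6 or any 1 of the SCA1 KI cerebellum libraries, and the call of Nfib there was lost in all fits without 1 library but those without SCA1 KI cortex library A or E. The cortical count ranged from 8 (without SCA1 KI library A or WT library D) to 13.

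Among 34 tested genes of reactive astrocytes, 2 rose and 3 fell in the cortex and 1 fell in the cerebellum, with medians of −0.02 and −0.05. These shares are near those over all tested genes in the cortex (10.8% lower, 4.82% higher) and below them in the cerebellum (4.44% lower), so that the counts do not set the list apart. The serine protease inhibitor Serpina3n went opposite ways, from 466 ± 54 to 884 ± 21 normalized counts in the cortex (LFC 0.93, adjusted p = 0.0113) and from 177 ± 74 to 88.1 ± 8.4 in the cerebellum (LFC −0.92, adjusted p = 0.0284), and the difference between regions passed (LFC difference 1.85, adjusted p = 0.00335 in limma). The cerebellar call was lost without WT library 2 or 6 or any 1 of the SCA1 KI libraries. Cd109 rose in the cortex from 36.7 ± 6.6 to 71.5 ± 17.5 normalized counts (SD, n = 3, LFC 0.93, adjusted p = 0.0096), and H2-T23 and Cd44 fell (LFC −0.68 and −0.72, adjusted p = 0.00241 and 0.0272 in limma). Without WT cortex library C 1 of the list was lower in the cortex, and without SCA1 KI cortex library E 4 were higher and 2 lower.

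Genes of region-specific astrocytes were counted as well. Of 11 genes of Bergmann glia and non-telencephalic astrocytes, Gria4 (LFC −0.41, adjusted p = 0.000445) and Hopx (LFC −0.36, adjusted p = 0.0321, libraries overlapping) fell in the cortex and 0 passed in the cerebellum in limma and edgeR, where 3 were lower and 0 higher at an unadjusted p under 0.05 and DESeq2 called 1. Without WT cortex library C or D, or SCA1 KI cortex library E, 1 of them was lower in the cortex. The list did not go 1 way there, as 5 of the 11 had a cortical LFC above 0 (median −0.05, highest 0.58). At an unadjusted p under 0.05 in limma, 2 were higher and 2 lower in the cortex. Without SCA1 KI cortex library A or E, 1 of the 11 was a DEG higher in the cortex. Of 4 genes of telencephalic astrocytes, Gpr37l1 and Mfge8 fell in the cortex (LFC −0.41 and −0.38, adjusted p = 0.000803 and 0.00223), and Mfge8 and Lhx2 fell in the cerebellum (LFC −0.38 and −3.15, adjusted p = 0.00527 and 7.17e-05 in limma). Lhx2, a forebrain transcription factor, was at 103 ± 45 normalized counts in the WT cerebellum and at 10.8 ± 4.7 in the SCA1 KI cerebellum (SD, n = 3), far below its level in the cortex.

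Other cell types were checked beside these results by their marker lists, and their part in the results was not tested. In the cortex, 3 of 8 genes of excitatory neurons fell (Cux2, Rorb and Slc17a7, with an LFC of −0.64, −0.91 and −0.50), and the summed level per kb of the list was 16756 to 17012 in WT and 11406 to 13592 in SCA1 KI libraries. All 8 had a cortical LFC below 0, with a median of −0.42, near the −0.48 of the 10 astrocyte and uptake genes. Among the 8 Purkinje cell genes 4 fell in the cortex as well, Itpr1, Rora and Calb1 (LFC −0.82, −0.53 and −0.44) among them, and 1 rose, Slc1a6, and the 4 were 2 without WT library C or D. The cortical LFC was below 0 for 6 of these 8 genes and above 0 for 2, with a median of −0.47. Gpr17 and Neu4, 2 of 7 genes of oligodendrocyte precursors, fell (LFC −0.49 and −0.40), and 0 did without SCA1 KI library A or WT library B or C. None of 10 oligodendrocyte, 10 microglial, 9 endothelial, 10 choroid plexus and ependymal, 8 meningeal and 8 granule cell genes passed in the cortex in limma. At an unadjusted p under 0.05, 2 endothelial genes and 1 granule cell gene were lower there and DESeq2 called 1 of each list, while edgeR called 0. All 9 endothelial genes had a cortical LFC below 0 (median −0.18), with a summed level per kb of 2522 to 2816 in WT and 2232 to 2667 in SCA1 KI libraries, and 2 of them passed without WT library D. WT cortex library B stood apart in the oligodendrocyte sum (28186 per kb against 18314 and 17119 in C and D). So it did for choroid plexus and ependyma (1399 against 177 and 198). Without library B, 8 oligodendrocyte genes passed in the difference between regions, higher in the cortex, against 0 in the reported fit. In the cerebellum all 10 oligodendrocyte genes had an LFC below 0, of which 3 passed (Mal, Opalin and Cldn11, LFC −0.55, −0.91 and −0.61), and the summed level per kb was 36996 to 53528 in WT, highest in library 2, and 30483 to 31428 in SCA1 KI libraries. Without WT library 2 or SCA1 KI library 1 or 3 of the cerebellum 0 of them passed, 1 did without WT library 6 or SCA1 KI library 5, and 6 without WT cortex library B. In the same region 1 of 10 microglial genes fell (P2ry12, LFC −0.46), Rorb fell and Tbr1 rose among the excitatory neuron genes (LFC −0.49 and 0.58), calls that were lost without several single libraries, and 0 of the other lists passed in limma. The LFC was nonetheless below 0 there for all 8 Purkinje cell, all 10 microglial, all 7 oligodendrocyte precursor and all 10 choroid plexus and ependymal genes (median −0.29, −0.20, −0.29 and −0.68). All 8 granule cell genes went the other way, with an LFC above 0 (median 0.16). Their summed level per kb was 37009 to 54060 in WT, lowest in library 2, and 50956 to 53430 in SCA1 KI libraries, which overlapped. Cerebellar sums per kb did not overlap between genotypes for Purkinje cells (50042 to 62304 in WT and 45153 to 49890 in SCA1 KI libraries), microglia (3007 to 3981 and 2825 to 2911) and oligodendrocyte precursors (2099 to 2947 and 1900.3 to 2086). At an unadjusted p under 0.05, 3 Purkinje cell genes, 5 of oligodendrocyte precursors and 1 of choroid plexus were lower, of which DESeq2 called 2 Purkinje cell genes and edgeR 1. By the same rule 9 oligodendrocyte genes were lower, of which DESeq2 called 6 and edgeR 3. For the microglial genes these counts were 4, 2 and 2, and 0 of either list were higher. Among the excitatory neuron genes 2 were lower and 2 higher at that p. The summed level of choroid plexus and ependyma varied from 760.4 to 60557 per kb among the cerebellar libraries of SCA1 KI mice and from 15648 to 58038 in WT. Among the defining markers at or under 3 reads in all libraries of a group were Gabra6 of granule cells and Pcp2 of Purkinje cells in the SCA1 KI cortex, Dao of Bergmann glia in the WT cortex and Fezf2 of cortical neurons in both cerebellar groups.

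**Figure D4:**
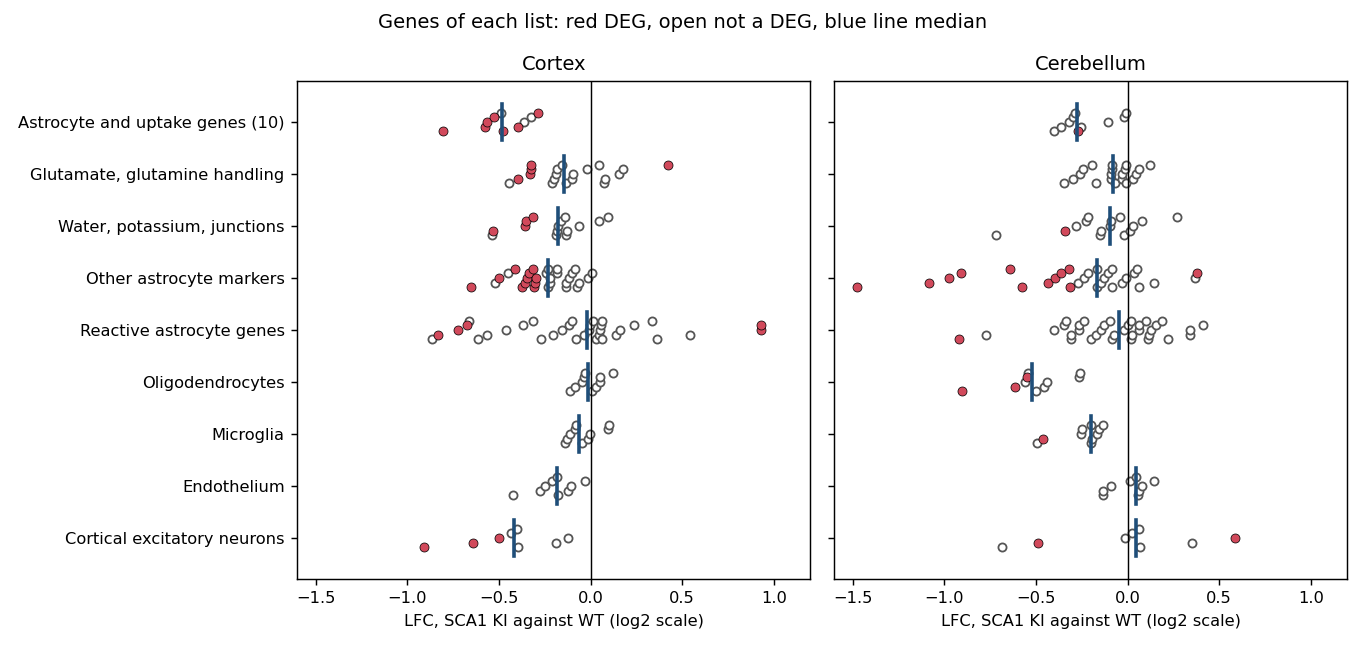
LFC of SCA1 KI against WT (horizontal axes, log2 scale) for each gene of 9 lists in cortex (left) and cerebellum (right), with DEGs in red, other genes open and the median of each list as a blue line. The median of the 10 astrocyte and uptake genes is −0.48 in the cortex and −0.28 in the cerebellum, where that of the oligodendrocyte genes is −0.52. The lists of regional astrocytes, of oligodendrocyte precursors and of the other cell types are not drawn.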

How the data were processed

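The authors aligned paired-end reads with STAR to mm10, summed them over genes by featureCounts and deposited DESeq2-normalized counts, a signal of reads divided by 1 size factor per library. The annotation and strand setting are not given in the sources used here. All values (100%, tolerance 0.02) were whole reads once divided by the step of their library, and reads were recovered for edgeR 4.0.16 and DESeq2 1.42.0, which were run as alternatives. Depth was 29520855 to 51311309 reads on genes, and replicate libraries differed by more than sampling noise, with a chi-square of 7.54 to 36.6 per gene. Nothing says that libraries came from separate animals, so p-values measure the spread between libraries, which may be technical.

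Log2(normalized count + 1) of 15369 genes with a mean of at least 10 was fitted with limma 3.58.1 (R 4.3.3, empirical Bayes with trend) over 12 libraries and 4 group means, and p-values were adjusted by Benjamini-Hochberg over all of them. DEGs were called at an adjusted p under 0.05 if the absolute LFC exceeded 0.25, and a difference of LFCs between regions was called at an adjusted p under 0.05. The pseudocount understates changes of low counts. The code was tested on simulated data. The 10 genes and all lists were chosen with earlier results of these data known. From each list up to 4 DEGs per region with the smallest p were named, and for likeness the 3 genes with the highest correlation. Some genes that this rule selects are counted in their lists but not reported here by name. Coordinates and exon lengths are from GENCODE vM21 (GRCm38, the build of mm10), which matched 15009 of 15758 symbols, and promoters are from RefSeq (GRCm38.p6). Slc1a2, Aldh1l1 and Glul share exonic bases with genes not in the table, and Atxn1 with Gmpr, and such reads could not be separated. Alternatives were other pseudocounts and filters, fits of single comparisons, centring on the region's median, other limits on the LFC, edgeR, DESeq2 and each library left out. Removal of a trend on length and GC content was added after the data were seen.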

Additional observations from a re-analysis of the deposited data

Results flagged for a closer look

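In the reported fit Slc1a3 and Aldh1l1 had genotype differences that were not the same in both regions, by a test of the difference itself. For Slc1a3 the cortical LFC was −0.48 and the cerebellar LFC −0.02, a difference of −0.46 (standard error 0.11, adjusted p = 0.0189 in limma), with all 3 SCA1 KI libraries below all 3 WT libraries in the cortex and overlapping libraries in the cerebellum. Over the fits that left out 1 library this difference ranged from −0.50 to −0.39 and its adjusted p from 0.0194 to 0.0572. For Aldh1l1 the LFCs were −0.57 and −0.27, a difference of −0.30 (standard error 0.083, adjusted p = 0.0452 in limma), with lower SCA1 KI libraries in both regions. That difference ranged from −0.34 to −0.24 without 1 library, with an adjusted p of 0.0317 to 0.112 in limma. Its call was lost in all of these fits but that without SCA1 KI cortex library F, and also with edgeR. The call of Slc1a3 was lost only without SCA1 KI cerebellum library 3. Region and sequencing occasion cannot be told apart in either case.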

How the results depend on the processing

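No paired analysis was possible because the deposited columns carry letters or numbers of their own and no replicate numbers of the labels. Of the LFCs of single genes recomputed under the alternatives, 778 stayed on their side of the threshold, 37 lost a call, 15 gained one and none reversed a call. In the cortex 7 genes were lower in the reported fit, 5 to 8 when 1 library was left out, 5 on the cortical libraries alone, 6 after centring or with edgeR, 8 with DESeq2 and 9 after removal of the trend on length and GC content. Slc1a2, Slc1a3, Glul, Kcnj10 and Aldh1l1 were among them in each of these fits, whereas no gene passed a limit of 1 on the LFC (0 in the cortex and 0 in the cerebellum). In the cerebellum 1 gene was lower in the reported fit, 0 after centring, 3 on its own libraries, 3 with DESeq2, 2 after removal of the trend and 0 to 3 when 1 library was left out. The difference between regions was called in 2 genes, in 1 with edgeR, in 3 after removal of the trend (S100b being the third) and in 0 to 2 when 1 library was left out (0 without SCA1 KI cerebellum library 3). Between WT regions the limit of 1 left 1 higher gene (Slc1a2) and 2 lower genes (Aqp4 and S100b). Why these counts moved was not tested, other than that a higher limit passes fewer genes. The number of 3 libraries per group limits the precision.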
